A study of Sus scrofa with 30 samples.

Results

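The mitotic cell cycle genes described here are a chosen set of 10 genes whose products replicate DNA, drive entry into mitosis or watch over chromosome separation. They were looked up by human protein identifier in the authors' liver table, which holds 19864 rows named in that way. Rows were found for 7 of the 10: CCNB1 (ENSP00000256442), CDK1 (ENSP00000378699), PLK1 (ENSP00000300093), BUB1 (ENSP00000302530), CCNA2 (ENSP00000274026), TOP2A (ENSP00000411532) and MCM2 (ENSP00000265056). MKI67, PCNA and AURKA were not analysed here. The symbols are those given with the chosen identifiers, and no gene position was used.

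Liver RNA of 30 female pigs was measured on 1-colour arrays, 3 pigs in each of 10 groups. Normal birth weight piglets (N, 1.4 to 1.6 kg) and low birth weight piglets (U, 0.8 to 1.1 kg) were suckled to weaning at day 28 and then fed freely. At T1, before any restriction, the groups were N and U. The T1 samples carry day 76 in their labels and day 75 in the series text, and the T2 samples day 97 and day 98. From day 76 to day 97 the restricted pigs (R) received 50% of free intake, while control pigs (K) ate freely, so the groups at T2 were NK, NR, UK and UR. After T2 all 4 kinds of pig ate freely for 5 weeks up to T3. The T3 samples carry day 103 in their labels and day 131 in the series text, so their age is not settled here. The labels give no genotype and no agent other than feed. The labels speak of litter mates but tie no sample to a litter.

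Dividing cells switch these genes on in order. MCM2 is a subunit of the helicase that opens DNA at replication origins, and cyclin A2 (CCNA2) carries cells through DNA synthesis into G2. TOP2A, topoisomerase II alpha, untangles sister chromatids. CDK1 bound to cyclin B1 (CCNB1) starts mitosis, PLK1 is a kinase that promotes mitotic entry and spindle assembly, and BUB1 is a kinase of the spindle checkpoint. Most hepatocytes of a grown animal rest outside the cell cycle, while the liver of a young growing animal still holds dividing cells. In a bulk sample, fewer dividing cells and less RNA per cell cannot be told apart, and the liver label was not checked against markers because no table at hand names the other rows.

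The table row of each of the 7 genes matched the median of 3 consecutive probes of 60 bases, which are given the gene's name here. They were tied to the row by their values alone (root mean square of 0.003 to 0.017 log2). No pig sequence was at hand to check them. The cyclin probes are shown. All 3 probes of each cyclin could be compared across the groups, as could all 3 of TOP2A and of PLK1, which are not printed. They are written 5′ to 3′ as the array's files give them, with no capitals because the whole probe hybridises. No 12-base word was shared between probes of a gene, so the 3 probes of a cyclin have separate sequences.
CCNB1 probe 1: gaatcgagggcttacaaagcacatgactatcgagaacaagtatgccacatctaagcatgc
CCNB1 probe 2: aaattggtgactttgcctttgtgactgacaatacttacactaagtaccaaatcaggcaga
CCNB1 probe 3: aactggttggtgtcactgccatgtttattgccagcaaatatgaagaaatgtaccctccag
CCNA2 probe 1: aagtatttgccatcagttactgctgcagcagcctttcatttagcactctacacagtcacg
CCNA2 probe 2: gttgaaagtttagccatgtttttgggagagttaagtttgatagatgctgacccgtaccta
CCNA2 probe 3: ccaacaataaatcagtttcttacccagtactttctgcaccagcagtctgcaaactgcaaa

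The members were not equally well measured. All 3 probes of TOP2A and of PLK1 were well above background on 30 of 30 arrays, per the scanner's own mark. The CCNB1 probes were so on 30, 25 and 29 arrays and the CCNA2 probes on 29, 30 and 26. One CDK1 probe was well above background on 30 arrays but its other probes on 8 and 11, and the CDK1 row lay closest to 1 of these dim probes on 21 of the 24 arrays of T2 and T3. The MCM2 probes passed on 16, 15 and 9 arrays. The BUB1 probes passed on 0, 2 and 3 arrays, and none of them at T2, so BUB1 is given as dim and without a fold.

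Arrays differed in other ways as well. The share of all probes well above background ran from 53.6% to 74.3% of an array. The 30 arrays lay on 6 slides, and slide 6 held the pig numbered 3 of each T3 group and no other array, in a scan session of its own. The authors' table had been scaled separately in 4 sets (the 6 arrays of T1, NK with NR at T2, UK with UR at T2, and the 12 arrays of T3), so its levels are compared only inside a set. Values from the table are intensities, and differences are on the log2 scale. Beyond speaking of litter mates, the labels say of the 3 pigs of a group only that they were chosen at random.

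**Figure D1:**
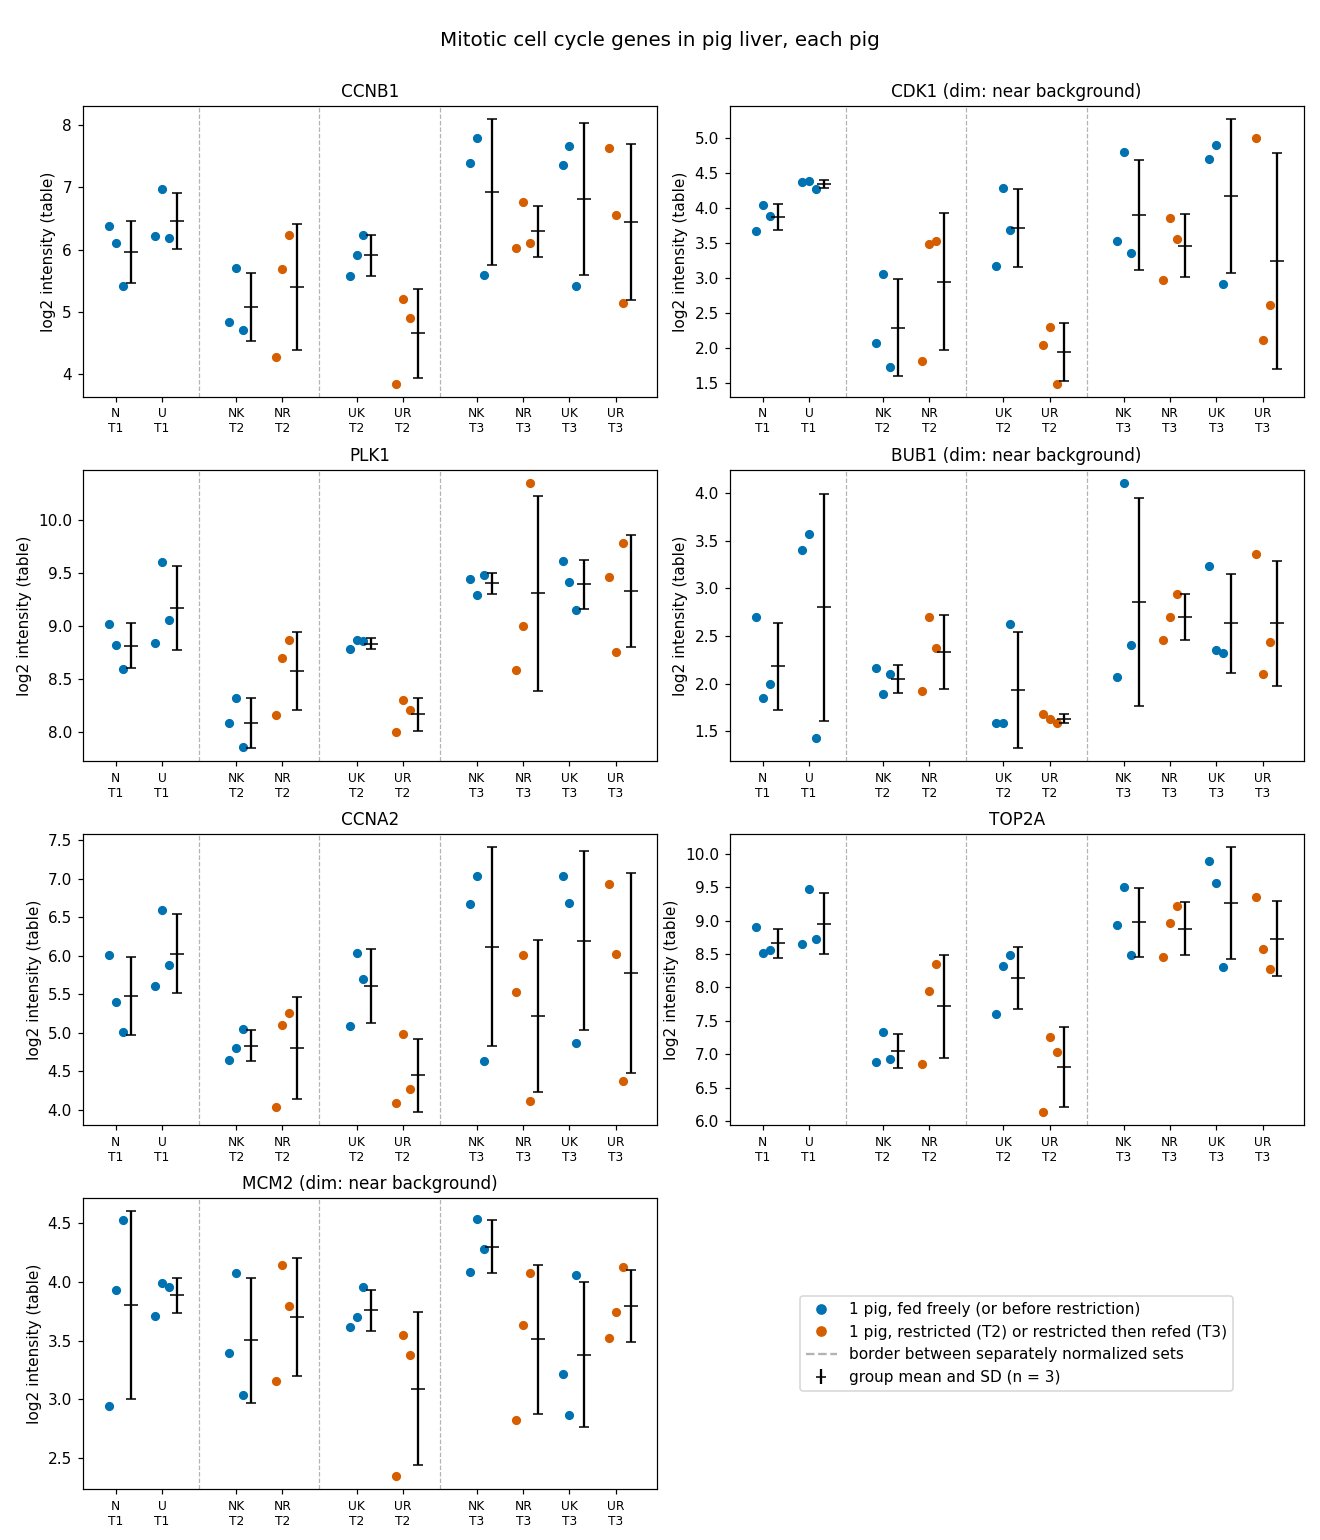
Log2 intensity of the 7 genes in every pig (1 panel per gene; x axis: group; blue: freely fed or before restriction; orange: restricted, or restricted and refed; black: group mean and SD, n = 3; dashed lines: borders between separately scaled sets). In the low birth weight set at T2, the UR pigs lie below all UK pigs for every gene but BUB1, and at T3 the pigs of a group lie far apart for CCNA2 and CCNB1.

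The first comparison asked how restricted low birth weight pigs differed from freely fed ones at the end of restriction (UR against UK at T2). The restricted pigs had lower mean levels of all 7 members, and 6 of the 7 did not overlap between the groups, against 5.13% of all rows that lay wholly lower. The 7 include BUB1, with 0 of 9 probe readings well above background in UK and in UR, so its direction is not read. The 6 include the dim CDK1 and MCM2 rows. None of the 7 passed limma's adjusted threshold of 0.05, and neither did any other row (0 of 19864, 0%). At an unadjusted p under 0.05, 828 rows stood out. Of these, 499 were lower, 2.51% of all rows, and they included 5 of the 7 members. The median log2 difference of the members was -1.16, against 0.00055 for all rows.

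Among the genes of mitotic entry, CCNB1 read 47.9, 60.2 and 75.4 in the UK pigs and 14.4, 37.0 and 29.9 in the UR pigs. Every restricted pig lay below every freely fed pig, and the mean was 2.39-fold lower (log2 difference -1.26, SE 0.51, 95% interval -2.39 to -0.12, limma adjusted p = 1). The separate CCNB1 probes differed by -1.39, -1.48 and -1.27 on the log2 scale. CDK1, the kinase that cyclin B1 activates, was best read by its bright probe. That probe's log2 signal, relative to the 75th percentile of the array, was -1.31, -0.48 and -0.62 in UK and -3.60, -1.89 and -2.01 in UR. Again no UR pig reached a UK pig, and the bright probe was 3.24-fold lower (log2 difference -1.70, SE 0.52, limma adjusted p = 0.95). The CDK1 row of the table read 9.0, 19.4 and 12.8 in UK and 4.1, 4.9 and 2.8 in UR, values that follow a probe well above background in 0 UR pigs and 1 UK pig, so no fold is given for the row. PLK1 read 440.3, 467.1 and 466.0 in UK and 256.4, 315.8 and 295.5 in UR. The groups were apart and each was tight, with a mean 1.59-fold lower in UR (log2 difference -0.67, SE 0.20, 95% interval -1.10 to -0.23, limma adjusted p = 1). The PLK1 probes were not alike: the row's own probe and a second one differed by -0.67 and -0.73, whereas the brightest probe differed by 0.19 (SE 0.18) in the other direction.

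Of the genes of DNA synthesis and chromosome untangling, TOP2A read 195.2, 321.5 and 358.7 in UK and 70.5, 153.8 and 130.4 in UR. The groups did not overlap and the mean was 2.52-fold lower (log2 difference -1.33, SE 0.41, 95% interval -2.25 to -0.42, limma adjusted p = 1). Its 3 probes gave log2 differences of -1.10, -1.37 and -1.18. CCNA2 read 34.1, 65.7 and 51.8 in UK and 17.0, 31.6 and 19.3 in UR. Here too the highest UR pig stayed below the lowest UK pig, with a mean 2.24-fold lower (log2 difference -1.16, SE 0.36, 95% interval -1.97 to -0.36, limma adjusted p = 1), and its probes differed by -1.38, -0.97 and -1.14. MCM2, which is dim, read 12.3, 13 and 15.5 in UK and 5.1, 11.7 and 10.4 in UR. These groups were apart as well, but the fitted interval reached from -1.49 to 0.16, and 1 of the 9 probe readings in UR was well above background. The MCM2 probe PigEx0046614 was well above background in 2 UK pigs and 0 UR pigs. Its log2 means relative to the 75th percentile were -4.39 in UK and -4.89 in UR. The groups overlapped by this probe (UK -4.98 to -3.86, UR -5.13 to -4.48). With each UR signal below the array's lowest signal well above background raised to that signal, the UK mean was 1.31-fold higher. The fitted difference was -0.51 (SE 0.53, 95% interval -1.68 to 0.66, limma adjusted p = 0.95), so no least fold is established.

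**Figure D2:**
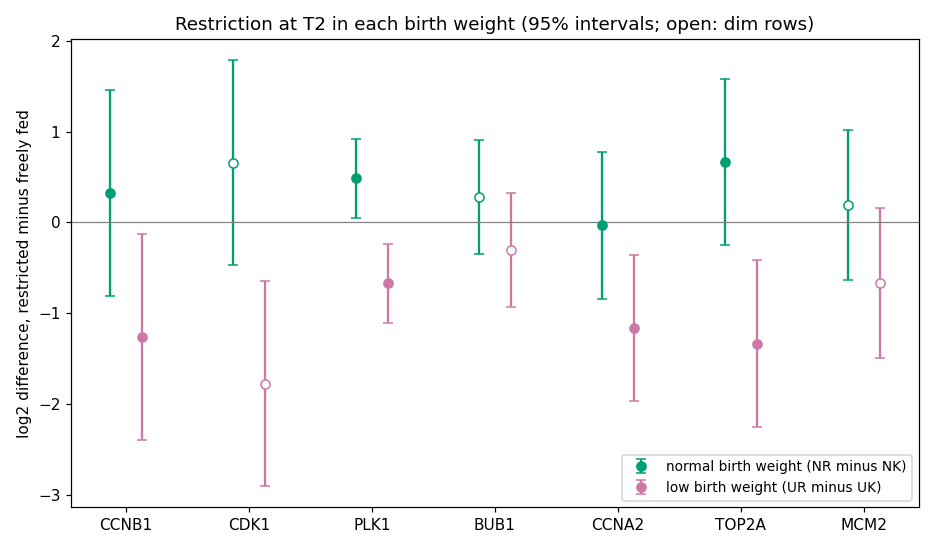
Log2 difference between restricted and freely fed pigs at T2 for the 7 genes (y axis; points: limma estimates; bars: 95% intervals; green: NR minus NK; pink: UR minus UK; open points: dim rows). The pink points lie below 0 for all 7 genes, and 6 of the 7 green points lie above 0.

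The single probes gave the same picture with more readings. Of the 21 probes, 16 were bright enough to be tested, and 15 of these 16 were lower in UR, 13 of them at an unadjusted p under 0.05, against 4.45% of all probes tested in either direction. UR lay wholly below UK in 12 of the 16, against 5.98% of all probes. Probes of a gene share its transcript and the pigs, so they are not independent readings. Arrays of UR had 61.5%, 65.3% and 64.3% of their probes well above background and arrays of UK 63.7%, 67.0% and 66.1%; the part of this in the result was not tested. In UR, 6 of the 9 CCNB1 readings and 6 of the 9 CCNA2 readings were well above background. Only slides 1 and 2 held both groups, with 1 pig of each. Within slide 1 the log2 differences were -0.37 for CCNB1, -0.34 for TOP2A, -0.11 for CCNA2 and -0.48 for PLK1. Within slide 2 they were -2.06, -2.19, -1.95 and -0.87 in the same order, so direction held on both slides while size did not.

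In normal birth weight pigs at T2 (NR against NK) the same restriction went with no such lower level. TOP2A read 117.7, 161.6 and 122.4 in NK and 115.7, 246.2 and 326.3 in NR. Of the NR pigs, 1 lay beside the NK pigs and the others above them, and the log2 difference was 0.67 (SE 0.41, limma adjusted p = 0.74). CCNB1 read 28.5, 51.9 and 26.1 in NK and 19.3, 51.8 and 75.4 in NR, which spans the whole NK range (0.32, SE 0.51). CCNA2 read 25, 27.9 and 33.0 in NK and 16.4, 34.3 and 38.3 in NR, with a difference of -0.03 (SE 0.36) whose direction turned under several alternatives. PLK1 read 271.9, 320.8 and 232.0 in NK and 286.7, 416.1 and 467.5 in NR (0.49, SE 0.20, 95% interval 0.05 to 0.92, limma adjusted p = 0.65), and was the 1 member past an unadjusted p of 0.05 on the higher side, as were 2.67% of all rows. The bright CDK1 probe differed by 0.84 (SE 0.52), and MCM2 by 0.20 (SE 0.37). Of the 16 tested probes 15 were higher in NR, 2 of them at an unadjusted p under 0.05, against 9.37% of all probes in either direction. No member was called, as no row was (0%; 1445 rows at an unadjusted p under 0.05). None of the 7 was free of overlap between NR and NK, against 4.09% of rows wholly higher and 7.17% wholly lower. The pig that lay low in NR was the first in every bright member. Arrays of NR had 65.2%, 61.6% and 74.3% of their probes well above background, and arrays of NK 62.9%, 64.3% and 62.1%. The 74.3% of NR pig 3 was the highest of the 30 arrays, and its part in the result was not tested. Without that pig the CCNB1 difference was -0.10. With 1 pig left out, TOP2A ran from 0.35 to 1.10 and PLK1 from 0.34 to 0.69. On slide 5, the slide that held both groups, all 7 members were higher in the NR pig than in the mean of 2 NK pigs, by 0.18 to 1.10.

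Whether the difference between restricted and freely fed pigs itself differed between the birth weights was tested directly, as the UR minus UK difference less the NR minus NK difference. It was below 0 for all 7 members, with a median of -1.15 against 0.03 for all rows. The 7 include BUB1, of which no probe reading was well above background at T2. PLK1 had -1.15 (SE 0.28, 95% interval -1.77 to -0.54) and TOP2A -2.0 (SE 0.58, 95% interval -3.29 to -0.70). CCNB1 had -1.58 (SE 0.72, interval -3.18 to 0.03) and CCNA2 -1.13 (SE 0.51, interval -2.27 to 0.01). The bright CDK1 probe had -2.54 (SE 0.74). All 16 tested probes were below 0, 12 of them at an unadjusted p under 0.05, against 3.05% of all probes in either direction. With the CDK1 row, 3 of the 7 rows were lower at an unadjusted p under 0.05, against 1.6% of all rows. The adjusted limma p was 1 for each of the 7, and 0 rows were called (0%; 675 at an unadjusted p under 0.05), so the difference between birth weights did not pass the threshold. Averaged over both birth weights, restriction gave 7 differences between -0.60 and -0.01 with 0 called (0%; 1674 at an unadjusted p under 0.05), and CCNA2 (-0.60, SE 0.26, limma adjusted p = 0.57) was the 1 member lower at an unadjusted p under 0.05, as were 5.26% of rows.

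Before restriction, at T1, the low birth weight pigs had the higher mean for all 7 members, with a median log2 difference of 0.48 against -0.01 for all rows. The 7 include BUB1, with 0 of 9 probe readings well above background in N and 2 of 9 in U, so its direction is not read. That median is the value of the dim CDK1 row. With 1 pig left out, TOP2A ran from 0.03 to 0.44 and MCM2 from -0.34 to 0.45. The CDK1 row read 12.7, 16.4 and 14.7 in N and 20.6, 20.7 and 19.3 in U. It was the member whose groups did not overlap, as 2.82% of all rows did on that side, and the 1 past an unadjusted p of 0.05, against 1.42%. Its bright probe differed by 0.58 (SE 0.22, limma adjusted p = 1). CCNB1 read 83.4, 68.6 and 42.7 in N and 74.5, 126.2 and 73.1 in U, which overlap (0.50, SE 0.34). TOP2A read 480.4, 364.4 and 379.4 in N and 403.4, 714.5 and 424.7 in U, where 1 U pig stood high (0.29, SE 0.27). The same U pig was highest in CCNA2, with 96.8 against 48.6 and 58.7, and in PLK1, with 781.7 against 460.0 and 532.3. The differences of CCNA2 (0.55, SE 0.37), PLK1 (0.35, SE 0.24) and MCM2 (0.08, SE 0.41) had intervals that included 0. No row was called at T1 (0%; 568 at an unadjusted p under 0.05). Slides 1 and 2 held both groups: on slide 1 all 7 members were higher in U, and on slide 2, with 1 pig of each group, BUB1 and MCM2 had log2 differences of -0.57.

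After 5 weeks of refeeding, at T3, no member differed between groups at the adjusted threshold. In no member did the UR pigs lie apart from the UK pigs, against 3.55% of rows wholly higher and 2.06% wholly lower in UR. At T3, 6 of the 7 members and 15 of the 16 tested probes had the lower mean in UR than in UK, and all 7 members and 13 of the 16 probes had the lower mean in NR than in NK. Both counts include the dim BUB1 (-0.001 and -0.16), whose direction is not read. The members' median log2 differences were -0.37 and -0.44, against 0.02 and -0.07 for all rows. For NR against NK, TOP2A and PLK1 turned direction under some alternatives. TOP2A read 954.5, 760.6 and 318.0 in UK and 657.7, 379.8 and 308.7 in UR, overlapping over most of the range (-0.53, SE 0.45, limma adjusted p = 1). Pigs of UK and UR with the same number deviated together (correlations over rows of 0.15, 0.25 and 0.52). The pigs numbered 2 lay together on slide 4 and those numbered 3 on slide 6, so number and slide cannot be told apart there. In each of these 3 pairs TOP2A and CCNA2 were lower in the UR pig, and MCM2 was higher. CCNB1 (197.9 against 164.8) and CDK1 (31.9 against 25.9) were higher in UR pig 1, and PLK1 (882.6 against 570.6) in UR pig 3. The dim BUB1 was mixed. With the pig number as a block, the differences of TOP2A and CCNA2 kept a limma adjusted p of 1. CCNB1 read 164.8, 202.9 and 42.5 in UK and 197.9, 94.1 and 35.2 in UR (-0.37, SE 0.78). CCNA2 read 131.0, 103.1 and 29.2 in UK and 122.1, 65.1 and 20.7 in UR (-0.42, SE 0.87). The 95% interval for TOP2A ran from -1.53 to 0.47 and still holds the size seen at T2, so the absence of a call does not show that the groups were alike. In the normal birth weight pigs, TOP2A read 490.3, 728.1 and 358.1 in NK and 350.4, 501.2 and 598.4 in NR (-0.09, SE 0.45). CCNA2 read 102.3, 130.8 and 24.9 in NK and 46.1, 64.3 and 17.3 in NR (-0.90, SE 0.87). PLK1 read 696.0, 626.9 and 715.9 in NK and 384.6, 512.2 and 1304.9 in NR, where the restricted group was the scattered one (-0.09, SE 0.41).

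Between birth weights among freely fed T3 pigs, MCM2 was the member whose groups did not overlap, without passing the adjusted threshold. It read 17.0, 23.2 and 19.4 in NK and 9.3, 7.3 and 16.7 in UK, and 5.18% of all rows lay wholly lower in UK in this way. The log2 difference was -0.92 (SE 0.37, 95% interval -1.74 to -0.10, limma adjusted p = 1), and 2.26% of rows were lower at an unadjusted p under 0.05. MCM2 in NR, at 7.1, 12.4 and 16.9, also lay below every NK pig, against 5.17% of all rows. The restriction difference between birth weights for MCM2 at T3 was 1.20 (SE 0.52, 95% interval 0.04 to 2.37, limma adjusted p = 0.999), with 1.76% of rows higher at an unadjusted p under 0.05. The MCM2 probes that could be tested went in opposite directions here, at -0.69 (SE 0.72) and 0.83 (SE 0.90), and under the alternatives the row's value ran from 0.03 with normexp to 1.68 with array weights. For UK against NK these probes had -0.23 (SE 0.51) and -0.73 (SE 0.63), and the row's value was -0.03 with normexp. MCM2 readings near background carry this result, with 6 of 9 probe readings in NK and 4 of 9 in UK well above it. The other members gave differences between birth weights of -0.23 to 0.28 in freely fed pigs, and all 7 gave -0.22 to 0.56 in restricted pigs. In the 6 comparisons at T3, 0 rows were called (0%), with 379 to 915 rows at an unadjusted p under 0.05.

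The scatter at T3 followed slide 6. CCNA2 ran from 17.3 to 29.2 in the 4 pigs on that slide and from 46.1 to 131.0 in the other 8, with no overlap. CCNB1 ran from 35.2 to 68.7 on slide 6 and from 65.1 to 222.0 elsewhere. TOP2A overlapped more, with 308.7 to 598.4 on slide 6 and 350.4 to 954.5 elsewhere. PLK1 did not follow, with 570.6 to 1304.9 on slide 6 and 384.6 to 786.8 elsewhere, and MCM2 ran from 16.7 to 19.4 against 7.1 to 23.2. Each T3 group had 1 pig on that slide, but these pigs did not move alike: in TOP2A the slide 6 pig was the highest of NR, at 598.4, and the lowest of NK, at 358.1. Slide, scan and pig cannot be told apart here. Without slide 6 the UR minus UK differences at T3 were -0.77 for TOP2A, -0.42 for CCNB1 and -0.38 for CCNA2. The NR minus NK differences at T3 were then -0.51, -1.20 and -1.09, against -0.09, -0.63 and -0.90 with all pigs, and none of these was called.

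To follow the freely fed pigs over time, single probes were read from the scanner files on 1 scale, the log2 signal minus the array's 75th percentile. From T2 to T3 all 16 tested probes were higher, with a median log2 difference of 0.95 against -0.01 for all probes. These differences average NK and UK, which were not fitted apart. The mean of TOP2A probe 3 went from -2.02 to -0.01 in NK and from -0.74 to 0.16 in UK. That of CCNB1 probe 1 went from -3.44 to -1.15 in NK and from -2.03 to -1.44 in UK. The brightest PLK1 probe rose less in NK, from 3.24 to 3.29, than in UK, from 3.58 to 3.75. Whether the birth weights differed in this was not tested. TOP2A rose by all 3 of its probes. Its probe 3 ran from -2.18 to -0.36 with a median of -1.45 at T2 and from -0.62 to 0.61 with a median of 0.21 at T3, so the ranges touched only where the lowest T3 pigs met the highest T2 pigs. The increase was 2.75-fold (log2 difference 1.46, SE 0.29, limma adjusted p = 0.0047). The other TOP2A probes rose 2.29-fold (limma adjusted p = 0.016) and 2.40-fold (limma adjusted p = 0.018). CCNB1 rose by 2 of its 3 probes. Its first probe ran from -3.84 to -1.85 with a median of -2.57 at T2 and from -2.69 to -0.49 with a median of -0.82 at T3, where 4 pigs lay above every T2 pig and the 2 of slide 6 did not. That probe rose 2.71-fold (log2 difference 1.44, SE 0.37, limma adjusted p = 0.025) and the second 2.91-fold (limma adjusted p = 0.035), while probe 3 had 2.45-fold at an adjusted limma p of 0.069. These 5 probes were all higher, as were 2.42% of all probes, while 5.57% were called in either direction. The plan had limited time comparisons to rows that equal 1 probe or to probes matched to a pig protein. None of the 5 called probes was shown to meet that limit. Of the 24 arrays of T2 and T3, the CCNB1 row lay closest to probe 3 on 24 and to probes 1 and 2 on 0. The TOP2A row lay closest to its probes on 0, 20 and 4. An unadjusted p under 0.05 was reached by 12 of the 16 member probes and by 20.8% of all probes.

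The other members were not called from T2 to T3, though some were under other settings. CCNA2 probes had log2 differences of 0.90, 0.59 and 1.11 (lowest limma adjusted p = 0.082), the bright CDK1 probe 0.96 (SE 0.36, limma adjusted p = 0.11), and PLK1 0.73, 0.12 and 0.52, with a limma adjusted p of 0.057 for the first. The 2 MCM2 probes had 0.23 and 0.12. With slide as a block all 3 CCNA2 probes were called (limma adjusted p = 0.036, 0.047 and 0.013), as was CCNB1 probe 3 (0.031). With the pig number as a block CCNA2 probe 3 (0.041), the first PLK1 probe (0.048) and CCNB1 probe 3 (0.045) were called by limma adjusted p. Without slide 6 the log2 differences were larger for TOP2A (1.56, 1.59 and 1.76), CCNB1 (2.01, 2.18 and 1.87) and CCNA2 (1.46, 1.26 and 1.61), and all 9 of these probes were then called, with limma adjusted p at most 0.018. The bright CDK1 probe (1.20, limma adjusted p = 0.043) and the first PLK1 probe (0.78, limma adjusted p = 0.0094) were then called as well. On slide 4, the slide that held freely fed pigs of both times, the mean of 3 T3 pigs was above the 1 T2 pig by 0.42 to 0.69 for the TOP2A probes, 1.02 to 1.25 for CCNB1 and 0.62 to 0.83 for CCNA2. The T2 pig there was UK pig 3, and the T3 pigs were NK pigs 1 and 2 and UK pig 2. Birth weight is therefore mixed into these differences. On that slide the bright CDK1 probe had 0.03, the PLK1 probes 0.25, -0.51 and -0.02, and the tested MCM2 probes -0.88 and -0.69. By TOP2A probe 2, NK pig 1 of T3 lay below the T2 pig, at -0.46 against -0.17. Single pigs decided some calls. TOP2A probe 3 kept its call whichever array was left out. The call of the first TOP2A probe was lost without NK pig 3 at T2 or UK pig 1 at T3 (limma adjusted p 0.055 and 0.054), and that of the second without either of these or UK pig 1 at T2 (0.051 to 0.057). The first CCNB1 probe lost its call in 6 of 12 such fits (without NK 3 or UK 1 at T2, or NK 1, NK 2, UK 1 or UK 2 at T3), with limma adjusted p up to 0.075. The second lost it in 9 of 12, all but those without NK 2 at T2 or without a slide 6 pig, with limma adjusted p up to 0.095. It also lost it with quantile normalization (limma adjusted p = 0.098), normexp (0.070), no filter (0.056) and a fit that left out the T1 arrays (0.053). The spread of CCNB1 probe 1 was an SD of 0.41 at T1, 0.86 at T2 and 0.91 at T3 (n = 6 each), which a fit over all 30 arrays treats as equal.

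From T1 to T2, 15 of the 16 tested probes were lower in freely fed pigs and none was called, against 0.229% of all probes. An unadjusted p under 0.05 was reached by 8 of the 16 and by 9.76% of all probes. TOP2A came nearest. Its probe 3 ran from -0.53 to 0.38 with a median of -0.27 at T1 against a median of -1.45 at T2, a log2 difference of -1.18 (SE 0.29, limma adjusted p = 0.080), and its other probes had -1.12 and -1.24. The bright CDK1 probe had -1.02 (SE 0.36) and the CCNB1 probes -0.91, -1.04 and -0.79. The 6 T2 pigs were not of 1 kind. TOP2A by its probe 3 read -2.18, -1.70 and -2.17 in NK and -1.20, -0.67 and -0.36 in UK, with all UK pigs above all NK pigs. CCNB1 by its first probe read -3.65, -2.82 and -3.84 in NK and -2.32, -1.85 and -1.93 in UK, again apart. UK lay wholly above NK in 14 of the 16 tested member probes, against 6.14% of all probes. On slide 1 the TOP2A differences from T1 to T2 were -1.25 to -1.67. On slide 2, where the T2 pig was a UK pig, they were -0.19 to -0.32, and CCNB1 and CCNA2 probes were higher at T2 there, by 0.12 to 0.67.

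**Figure D3:**
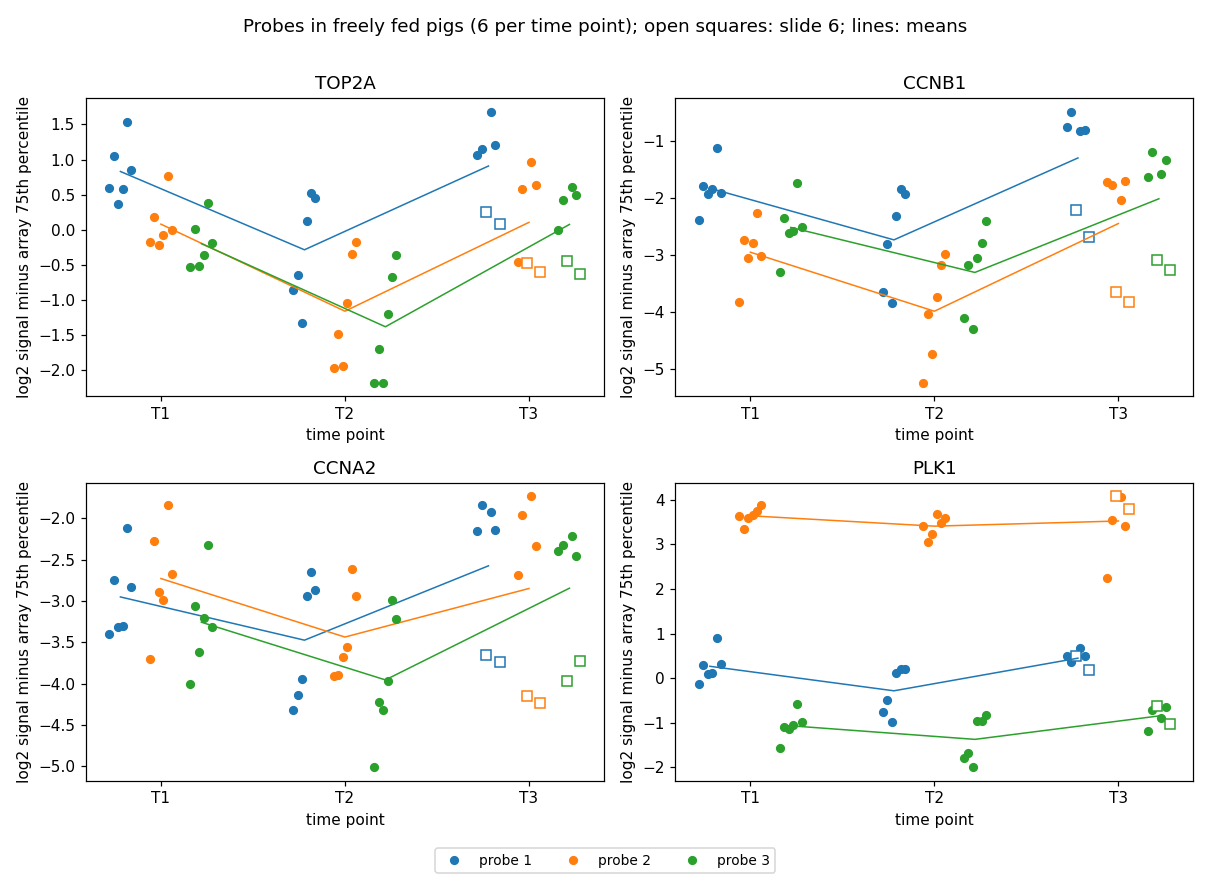
Log2 signal minus the array's 75th percentile (y axis) of the 3 probes each of TOP2A, CCNB1, CCNA2 and PLK1 in freely fed pigs at T1, T2 and T3 (x axis; points: pigs, 6 per time point; open squares: pigs on slide 6; lines: probe means). TOP2A and CCNB1 are lowest at T2 and higher at T3, the open squares are the lowest T3 points of CCNB1 and CCNA2, and the brightest PLK1 probe is nearly level.

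Well measured probes can be set side by side over all 10 groups on this scale. TOP2A by its second probe had its lowest group means in UR at T2 (-1.89 ± 0.66, SD, n = 3) and NK at T2 (-1.80 ± 0.27), then NR at T2 (-1.10 ± 0.78) and UK at T2 (-0.52 ± 0.46). The T1 and T3 groups all lay from -0.23 to 0.33 and do not differ beyond their SDs. CDK1 by its bright probe had the same order, with UR at -2.50 ± 0.95, NK at -2.33 ± 0.58, NR at -1.49 ± 0.83 and UK at -0.80 ± 0.44 (SD, n = 3 each) at T2. Which of UR and NK was the lower depended on the probe: NK had the lower mean in the other TOP2A probes (-0.94 against -0.73, and -2.02 against -1.92), in CCNB1 probe 1 and in all 3 PLK1 probes. CCNA2 by its first probe followed, at -4.20 ± 0.47 in UR, -4.13 ± 0.19 in NK, -3.91 ± 0.65 in NR and -2.82 ± 0.16 in UK (SD, n = 3 each). UK against NK at T2 was described only, with no model fitted.

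Pigs of a group varied together in some of these genes. Over 30 arrays, with group means removed, 9 of the 21 pairs of members correlated at an adjusted p under 0.05 (permutation within groups, 100000 resamples, adjusted over 21 pairs). The share of all pairs of rows that correlate in this way was not computed. Over all rows, the T3 pigs numbered 3, all on slide 6, deviated together (r from 0.52 to 0.66). The permutation did not keep slides together. The 9 pairs included the dim BUB1 with TOP2A (r = 0.54) and with CDK1 (r = 0.47), and the CDK1 row is dim too. CCNB1 and TOP2A had r = 0.88 and rho = 0.88 (permutation adjusted p = 0.00021 for both). CCNB1 and CCNA2 had r = 0.88 and rho = 0.84 (permutation adjusted p = 0.00021 for both). CDK1 correlated with TOP2A (r = 0.75, rho = 0.73), with CCNB1 (r = 0.74, rho = 0.77) and with CCNA2 (r = 0.63, rho = 0.60), with permutation adjusted p for r of 0.00598, 0.00895 and 0.0452. Without the 2 pigs farthest from the median, r was 0.86 for CCNB1 and TOP2A, 0.83 for CCNB1 and CCNA2, and 0.50 for CDK1 and CCNA2. With slide means also removed, these 3 pairs had r = 0.92, 0.74 and 0.55. The arrays share slides and scaling sets, and all 3 pairs also had r above 0.5 within T1 and T2 (0.93, 0.79 and 0.55) and within T3 (0.87, 0.93 and 0.66).

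PLK1 correlated with TOP2A (r = 0.51, rho = 0.61, permutation adjusted p = 0.021 for r), and with slide means removed it had r = 0.84 with TOP2A and 0.83 with CCNB1. Other PLK1 pairs differed between times. PLK1 and CCNA2 had r = -0.10 over all arrays (rho = 0.18, permutation adjusted p = 0.78 for r), made up of 0.78 in the 18 arrays of T1 and T2 and -0.37 in the 12 of T3, and r was 0.58 with slide means removed. PLK1 and CCNB1 likewise had r = 0.89 in T1 and T2 and -0.08 in T3. MCM2 reached an adjusted p under 0.05 with none of the other members, its r running from -0.28 with CCNA2 to 0.36 with PLK1.

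**Figure D4:**
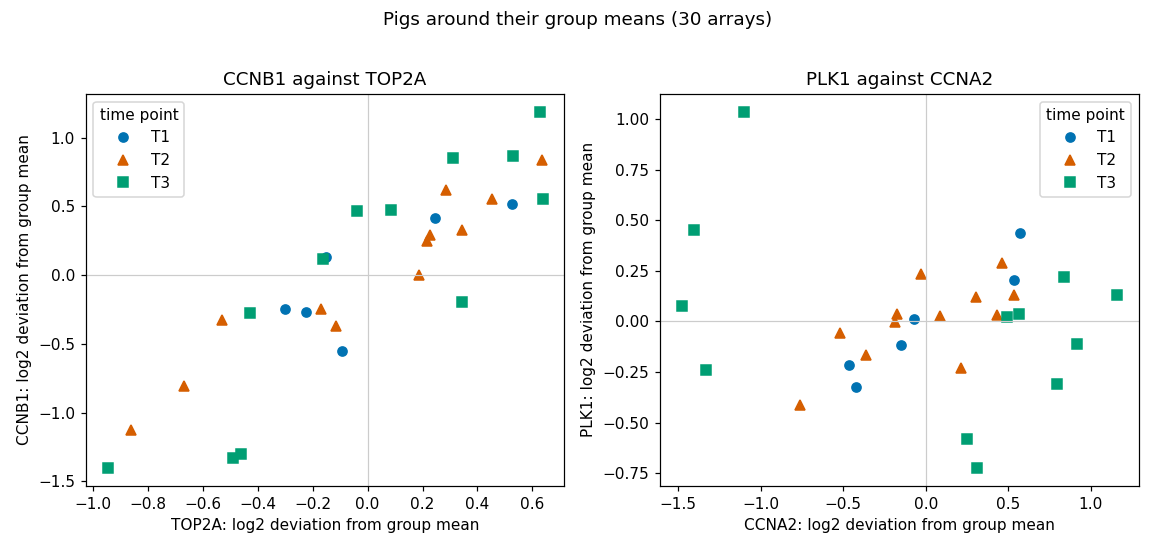
Log2 deviation of each pig from its group mean for CCNB1 against TOP2A (left) and PLK1 against CCNA2 (right), 30 arrays, by time point. CCNB1 follows TOP2A at every time (r = 0.88), while PLK1 follows CCNA2 at T1 and T2 (r = 0.78) and not at T3 (r = -0.37).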

How the data were processed

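Per the file headers, the scanner files were made by Agilent Feature Extraction 10.5.1.1, whose processed signal is an intensity, background subtracted within the array. The authors deposited a table of intensities (19864 rows). It was rebuilt as the median of consecutive probes of processed signal, quantile normalized within 4 sets of arrays: 19807 rows were matched within a root mean square of 0.05 log2. Of its 30 columns, 27 equal their own scanner file, and the 3 N columns at T1 equal files of other N pigs. Members and lists were chosen with earlier results of these data known. All members found are named. Other cell cycle genes and cell type markers could not be matched, because no table pairs these rows or probes with symbols.

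The log2 values of the table were fitted with limma 3.58.1 (R 4.3.3) per time point, without a filter, two-sided, Benjamini-Hochberg over 19864 rows. Time comparisons used 1 fit of 30 arrays over 41061 probes (log2 processed signal minus the 75th percentile) well above background on all 3 arrays of a group. The plan limited them to rows that equal 1 probe or to probes matched to a pig protein, and the protein match could not be made. The fits were tested on simulated data. Only 3 arrays per group limit the precision. Equal pig numbers were checked as pairs: deviations correlated above 0.1 for all numbers in 6 of 13 pairs of groups, among them NK with NR and UK with UR at T3. Alternatives were other scalings, filters, samples and blocks. Correlations used Python 3.11.15 with numpy 2.4.6.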

Additional observations from a re-analysis of the deposited data

How the results depend on the processing

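Of 1435 values of members under alternatives, 1341 kept direction and side of the threshold, 24 lost and 19 gained a call, and 51 turned direction; where they did not hold, the cause was not tested. Of 256 counts of calls, 221 stayed within 1.5 times. The differences of CCNB1, CDK1, PLK1, CCNA2, TOP2A and MCM2 between UR and UK at T2 stayed below 0 in all alternatives run. The dim CDK1 row ran from -1.87 to -0.21 and MCM2 from -0.69 to -0.10, both smallest with normexp, CCNB1 from -1.40 to -0.48, CCNA2 from -1.22 to -0.41, PLK1 from -0.74 to -0.52 and TOP2A from -1.40 to -1.003, and with 1 pig left out from -1.54 to -0.85, -1.43 to -0.95, -0.73 to -0.58 and -1.60 to -0.9955.

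Where 0 rows were called, alternatives called a few. With slide as a block in 1 fit of all 30 arrays, chosen after seeing the data, there was 1 for U against N at T1, 1 for NR against NK at T2 and 1 for NR against NK at T3. All 30 arrays in 1 fit gave 2 for NR against NK at T2 and 1 for UK against NK at T3. Array weights gave 1 for NR against NK at T3, log2(value + 16) gave 1 for averaged restriction at T2, and scanner signal minus the 75th percentile gave 1 for the difference between birth weights at T2. From T1 to T2, 94 calls became 55 with slide as a block, 145 with normexp and quantile, 33 without a filter, 144 with only the time points compared and 170 with the replicate block. From T2 to T3, 2287 became 3983 with slide as a block and 6427 without slide 6 (chosen after seeing the data). Leaving out 1 array gave 0 to 3 for NR against NK at T2, 0 to 1 each for UR against UK and UK against NK at T3 and for the difference between birth weights at T2 and at T3, 14 (without NK pig 3 at T2) to 131 from T1 to T2, and 1054 (again without NK pig 3 at T2) to 2525 from T2 to T3.

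Small differences turned direction. CCNA2 for NR against NK at T2 was 0.0239 with the table minus the 75th percentile, 0.0958 with slide as a block, 0.0016 with log2(value + 16), 0.2122 with slide as a block in 1 fit, 0.1507 from scanner signal and 0.0024 with normexp. With slide as a block, BUB1 for UR against UK at T2 was 0.0378, and for NR against NK at T3 TOP2A was 0.0513 and PLK1 0.0922; PLK1 was also 0.0141 with scan as a block and 0.0382 with normexp. BUB1 for UR against UK at T3 was 0.0077 with the table minus the 75th percentile, 0.0072 with log2(value + 16) and 0.2804 from scanner signal. MCM2 for U against N at T1 was -0.0155 with normexp. In the time comparisons, MCM2 PigEx0046614 was -0.2621 from T1 to T2 with slide as a block, and from T2 to T3 -0.7039 with slide as a block and -0.0424 with normexp. MCM2 PigEx0046615 from T2 to T3 was -0.3821 with slide as a block, -0.0875 with quantile, -0.0001 with normexp and -0.1740 without slide 6. PLK1 PigEx0020916 from T2 to T3 was -0.1211 with slide as a block and -0.0923 without slide 6. Leaving out 1 pig gave, for NR against NK at T2, CCNA2 -0.2623 to 0.3496, CCNB1 -0.0961 to 0.8868 and MCM2 -0.0368 to 0.4849, and at T3 BUB1 -0.5536 to 0.4634, CDK1 -0.7070 to 0.0163, PLK1 -0.6123 to 0.2689 and TOP2A -0.3404 to 0.1715. For UR against UK it gave BUB1 -0.4768 to 0.0468 at T2, and at T3 BUB1 -0.3664 to 0.2977, CCNA2 -1.0846 to 0.2818, CCNB1 -1.0738 to 0.2795 and PLK1 -0.2882 to 0.2268. It gave MCM2 -0.3440 to 0.4454 for U against N at T1, MCM2 PigEx0046614 -0.1292 to 0.2773 from T1 to T2, and MCM2 PigEx0046615 -0.1562 to 0.3059 and PLK1 PigEx0020916 -0.0813 to 0.3757 from T2 to T3.

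The replicate block left 0 calls in all 11 comparisons of the table and 2963 from T2 to T3. Signal over background limits BUB1, MCM2 and the CDK1 row, and 3 pigs a group limit the rest.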
